A study of Homo sapiens with 9 samples.

Results

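The immediate early genes described here are 10 listed genes: JUN, JUNB, FOS, FOSB, EGR1, EGR2, IER2, DUSP1, ZFP36 and NR4A1. They were listed by name, with no threshold on a value, and each was read at its named probe set (where a gene has several, that of highest average signal on the 9 arrays). The list was made with earlier results of these data known. Counts of members set beside shares of all genes below are therefore descriptive and do not test the members as a set. Of the 10, 7 had a named probe set among the 14778 named genes, and EGR2, ZFP36 and NR4A1 had none under these names and are not analysed here. RNA came from HL-60 clone 15, a subline of a human promyelocytic leukaemia line that serves as a model of eosinophil precursors, carrying a lentiviral construct that 4-hydroxytamoxifen (4-OHT, the active metabolite of tamoxifen) switches on. Induced RhoH cells carried the RhoH construct and received 100 nM 4-OHT (3 arrays), uninduced RhoH cells carried the same construct without 4-OHT (3 arrays), and GFP cells carried a GFP construct with 100 nM 4-OHT (3 arrays). How long 4-OHT was given, the promoter of the constructs and whether the transduced cells were grown from single cells are not given in the sources used here. GFP cells without 4-OHT were not analysed here. In induced against uninduced RhoH cells the drug and the construct's product therefore cannot be told apart, in induced RhoH against GFP cells the product and the transduced population cannot, and in uninduced RhoH against GFP cells none of the 3 can.

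Immediate early genes are transcribed within minutes of a growth factor, cytokine or stress signal, without new protein synthesis, and their mRNAs are short-lived. JUN, JUNB, FOS and FOSB encode basic leucine zipper proteins that pair to form the transcription factor AP-1. EGR1 encodes a zinc finger transcription factor, IER2 a nuclear protein, and DUSP1 a phosphatase that switches off MAP kinases, the kinases that relay many of these signals to the genes' promoters. In myeloid cells AP-1 and EGR1 are known for roles in the path from progenitor to monocyte and macrophage.

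The promoters of the 4 members called in at least 1 comparison are shown because much of the control of these genes is known to lie close to their starts. Each line gives the 250 bases before the RefSeq start (GRCh38.p14), 5′ to 3′ in the direction of the gene, with the matches to the searched motifs in capitals.
JUN (chr1:58784048-58784297, - strand): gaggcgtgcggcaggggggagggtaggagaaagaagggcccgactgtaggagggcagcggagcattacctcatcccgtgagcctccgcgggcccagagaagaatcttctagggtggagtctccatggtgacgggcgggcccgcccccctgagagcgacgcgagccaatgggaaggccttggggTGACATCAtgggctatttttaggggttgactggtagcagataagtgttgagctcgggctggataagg
JUNB (chr19:12791236-12791485, + strand): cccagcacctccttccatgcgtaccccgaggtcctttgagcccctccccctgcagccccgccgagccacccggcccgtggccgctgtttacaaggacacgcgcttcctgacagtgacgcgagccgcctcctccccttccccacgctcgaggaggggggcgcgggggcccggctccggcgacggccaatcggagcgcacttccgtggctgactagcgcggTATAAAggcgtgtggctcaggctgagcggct
FOS (chr14:75278578-75278827, + strand): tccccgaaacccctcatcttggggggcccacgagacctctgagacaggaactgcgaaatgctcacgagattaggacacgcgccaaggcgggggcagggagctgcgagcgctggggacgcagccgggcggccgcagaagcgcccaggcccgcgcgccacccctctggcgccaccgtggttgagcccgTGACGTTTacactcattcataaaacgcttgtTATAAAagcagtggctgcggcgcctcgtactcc
EGR1 (chr5:138465229-138465478, + strand): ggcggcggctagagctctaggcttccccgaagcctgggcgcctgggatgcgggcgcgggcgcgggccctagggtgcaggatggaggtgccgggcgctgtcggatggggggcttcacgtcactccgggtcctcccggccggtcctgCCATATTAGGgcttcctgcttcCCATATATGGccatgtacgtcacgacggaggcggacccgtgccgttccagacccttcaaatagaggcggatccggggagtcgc

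The motifs were searched on both strands of these windows for all 7 measured members and of all 35116 RefSeq windows. EGR1 had 2 CArG boxes, the site of serum response factor, at 105 to 96 and 83 to 74 bases before its start, and 1.16% of all windows hold such a box. The cyclic AMP response element TGACGTCA lay 125 to 118 bases before the start of DUSP1, and is found in 1.65% of windows. TATAAA lay 25 to 33 bases before the starts of JUNB, FOS, FOSB and DUSP1, and 10.7% of windows hold it. No window of the 7 held TGACTCA (4.2% of windows), GCGTGGGCG (0.72%) or GCGGGGGCG (4.72%), which says only that these letters are not there. Both remaining motifs were added after the windows were seen, because they are known from the JUN and FOS promoters. TGACATCA lay 67 to 60 bases before the start of JUN (2.37% of windows), and TGACGTTT 64 to 57 bases before that of FOS (0.419%). No motif match was found for IER2, and none of the motifs overlapped another in these windows.

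**Figure D1:**
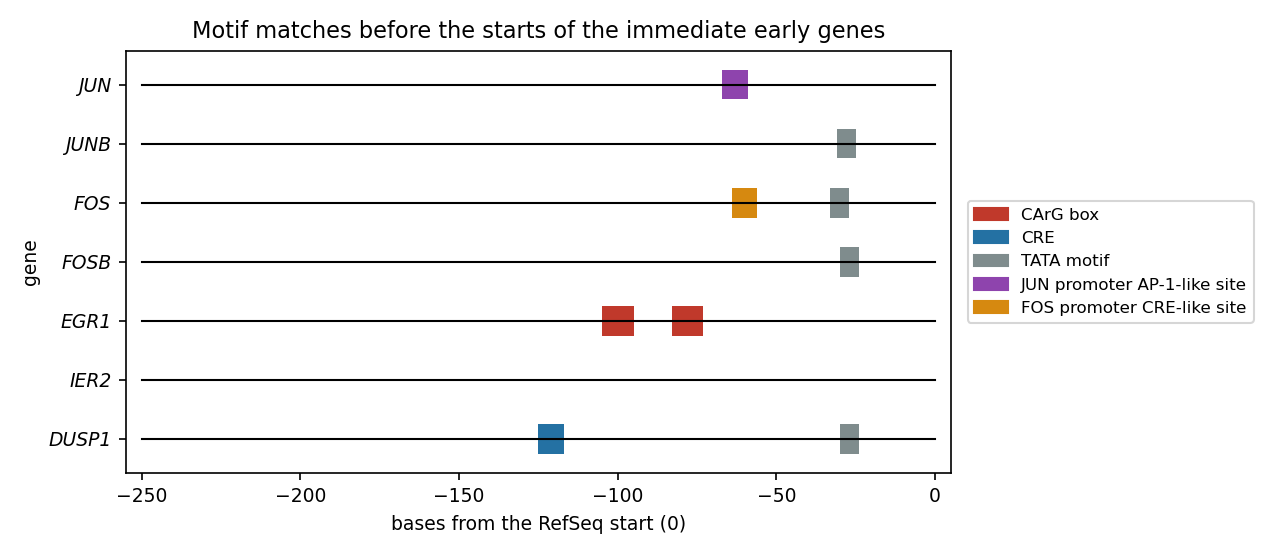
Positions of the motif matches in the 250 bases before the RefSeq start of each of the 7 measured genes (horizontal axis: bases from the start at 0; 1 line a gene; a coloured block is a match). EGR1 has 2 CArG boxes, DUSP1 has the only CRE, and IER2 has no match.

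The arrays gave 43550 log2 values each, with medians of 5.43 to 5.55. The labelled cell type was checked on marker genes: MPO, PRTN3, AZU1 and CTSG, proteins of promyelocyte granules, lay between percentiles 90.7 and 99.99 of the named genes on all arrays, while of 2 measured T cell genes CD2 lay between 32.4 and 40.2 and CD8A between 50.6 and 58.9. B cell and erythroid markers had no named probe set. RHOH itself was 5.59 ± 0.14 on the log2 scale in arrays labelled induced RhoH, 5.21 ± 0.06 in uninduced RhoH and 5.93 ± 0.02 in GFP (SD, n = 3 each). It was thus highest in the arrays labelled GFP, so directions below follow the labels and not the RHOH signal. RHOH lay near the array medians and no detection call was used here, so it may not have been above background. Whether its probe set covers the sequence of the construct is not given in the sources used here. Whether the group labels or the probe set account for this order of RHOH was not tested. RHOH was called higher in induced than in uninduced RhoH arrays (0.38, limma adjusted p = 0.0451), a call lost in 12 of 19 alternatives, and lower in uninduced RhoH than in GFP arrays (-0.72, limma adjusted p = 0.00042), a call kept in all 19. The RhoH arrays spread more within their groups than the GFP arrays did, with deviations from the group mean of 0.130 to 0.206 (SD over genes) against 0.0904 to 0.0959. The submitters describe the 3 replicates as biological.

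JUN was the member that differed most between the groups. Its log2 signal was 8.53, 8.33 and 9.36 in induced RhoH cells, against 5.12, 5.21 and 5.08 in uninduced RhoH cells, and 9.72, 9.29 and 9.21 in GFP cells. Uninduced RhoH cells were apart from all other arrays and close to each other, while the induced RhoH and GFP arrays overlapped. JUN lay between percentiles 78.3 and 90.5 of the named genes on the induced RhoH arrays, between 23.6 and 27.04 on the uninduced RhoH arrays and between 89.1 and 93.5 on the GFP arrays. The uninduced signal was below the array medians, and no detection call was used here, so JUN may not have been above background there and fold changes against it may be lower bounds.

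JUNB, which encodes another AP-1 subunit of the JUN family, followed the same order of groups. It was 9.56, 9.70 and 10.50 in induced RhoH cells, against 8.59, 8.97 and 8.72 in uninduced RhoH cells, and 9.89 to 10.30 in GFP cells. All uninduced arrays were below all others. FOS, the partner of JUN in the classical AP-1 dimer, was 7.71, 7.54 and 8.99 in induced RhoH cells, against 6.22, 7.23 and 6.61 in uninduced RhoH cells, and 8.73, 7.86 and 7.92 in GFP cells. EGR1 was 8.27, 7.85 and 8.52 in induced RhoH cells, against 6.88, 7.28 and 6.77 in uninduced RhoH cells, and 9.59, 7.85 and 7.80 in GFP cells. For both genes the uninduced arrays were again the 3 lowest of the 9. FOS was highest on induced RhoH replicate 3 and GFP replicate 1, and EGR1 on GFP replicate 1.

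FOSB, IER2 and DUSP1 varied less between the groups. FOSB was 6.67 to 7.09 in induced RhoH cells, against 6.59 to 6.74 in uninduced RhoH cells and 6.64 to 7.44 in GFP cells. IER2 was 7.07 to 7.92 in induced RhoH cells, against 6.83 to 7.17 in uninduced RhoH cells and 7.14 to 7.52 in GFP cells. DUSP1 was 5.60 to 5.88 in induced RhoH cells, against 5.65 to 5.78 in uninduced RhoH cells and 5.63 to 6.05 in GFP cells. In each of these 3 genes the groups overlapped in every comparison. DUSP1 lay between percentiles 34.2 and 43.1 of the named genes on all arrays. No detection call was used here, so DUSP1 may not have been above background in any group.

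**Figure D2:**
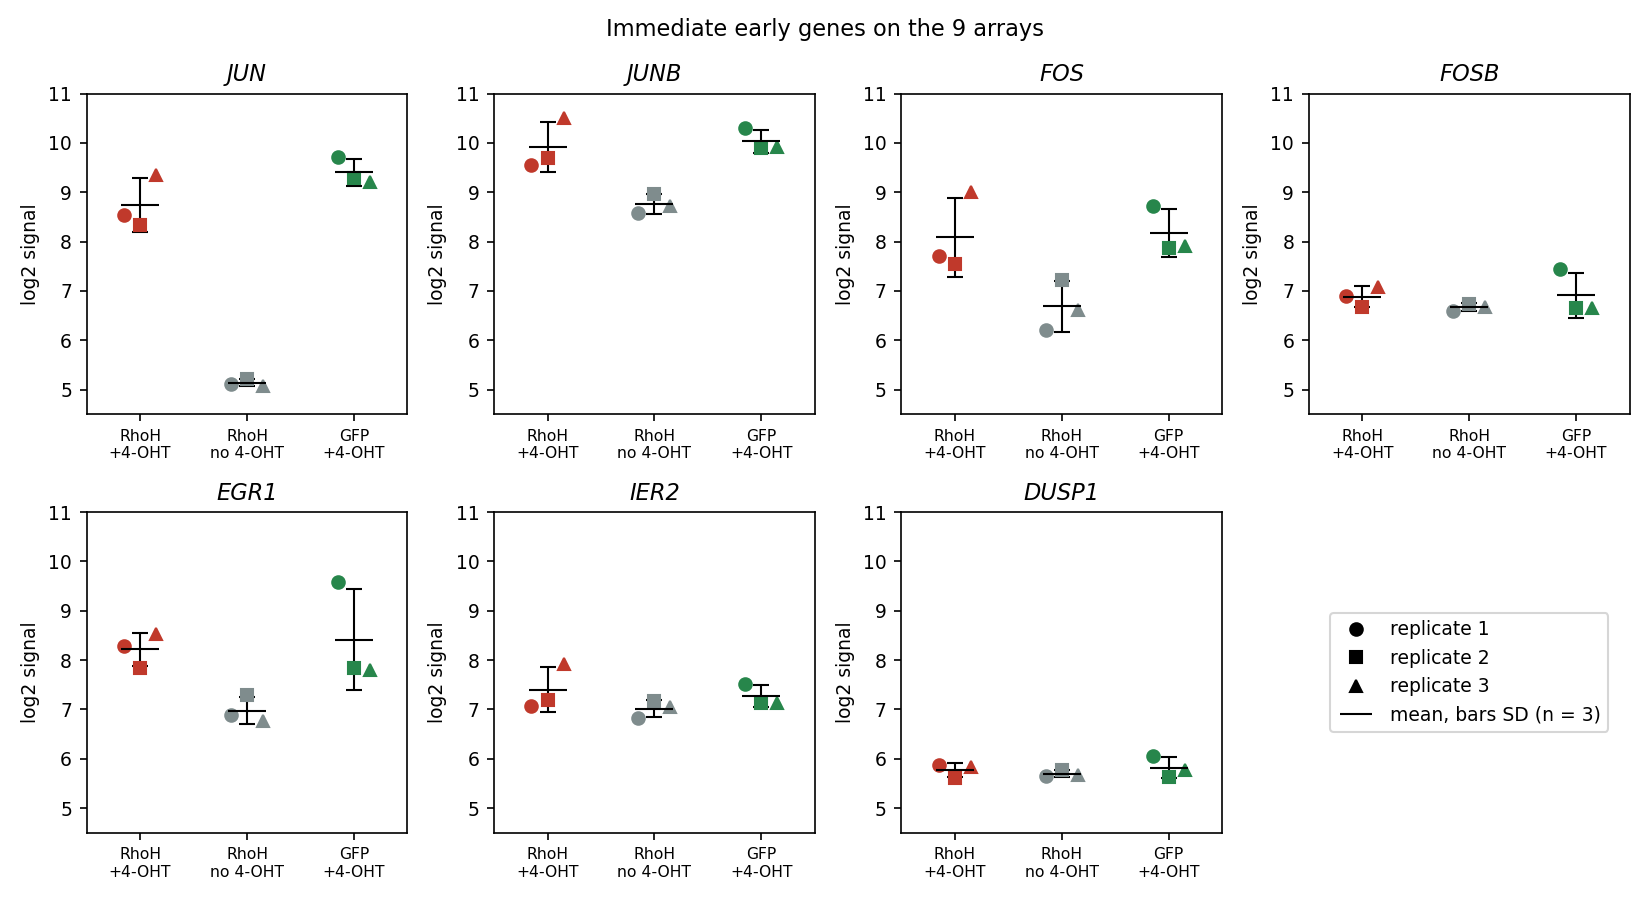
Log2 signal (vertical axis) of the 7 measured genes on each array, by group (horizontal axis); symbols mark the replicate number, black lines the mean and bars the SD of 3 arrays. JUN sits between 5.08 and 5.21 in uninduced RhoH cells and between 8.33 and 9.72 on the other 6 arrays, while DUSP1 stays between 5.60 and 6.05 throughout.

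Induced and uninduced RhoH cells carried the same construct and differed in 4-OHT. JUN and JUNB rose with 4-OHT, and the other 5 members did not pass the test. JUN averaged 8.74 ± 0.54 in induced and 5.14 ± 0.07 in uninduced RhoH cells (SD, n = 3 each), a measured 12.1-fold difference against that low signal (log2 fold change 3.60, SE 0.24, limma adjusted p = 3.99e-05). JUNB averaged 9.92 ± 0.51 in induced and 8.76 ± 0.19 in uninduced RhoH cells, a 2.24-fold difference (log2 fold change 1.16, SE 0.23, limma adjusted p = 0.0214). These 2 of 7 stand beside 3.78% of all 14778 genes called in this comparison, 3.02% higher and 0.751% lower. Of the calls over all genes 80.1% were higher, against 61.7% after quantile normalization again.

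FOS and EGR1 had positive differences of a similar size with a wider spread. FOS was at 1.40 (SE 0.40, limma adjusted p = 0.0994) and EGR1 at 1.24 (SE 0.41, limma adjusted p = 0.170), with 95% intervals of 0.51 to 2.28 and 0.31 to 2.16. For 4 of the 7 members, JUN, JUNB, FOS and EGR1, every induced array was above every uninduced array, beside 8.9% of all genes. FOSB was at 0.21 (95% interval -0.24 to 0.66), IER2 at 0.38 (-0.09 to 0.85) and DUSP1 at 0.07 (-0.20 to 0.34) on the log2 scale.

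The call of JUN held in each of the 19 alternatives run for it, with log2 fold changes of 3.29 to 3.81. The adjusted p of JUN ran from 1.23e-05 to 0.00187. The call of JUNB was lost without uninduced RhoH replicate 1 (adjusted p = 0.0743) or replicate 3 (0.0808), with only the 6 arrays compared (0.0917) and with all probe sets tested (0.0628), and EGR1 passed with only these 6 arrays (0.0379) and without GFP replicate 1 (0.0112), which enters the estimate of the spread.

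Induced RhoH and GFP cells had both received 4-OHT, and their comparison sets the RhoH against the GFP construct under the same drug. None of the 7 members was called by limma, with 1, JUN, at an unadjusted p under 0.05, beside 4.49% of all genes called (1.74% higher and 2.75% lower) and 16.4% at that unadjusted p. JUN averaged 8.74 ± 0.54 in induced RhoH and 9.41 ± 0.28 in GFP cells (SD, n = 3 each), a log2 difference of -0.67 (SE 0.24, limma adjusted p = 0.182) with a 95% interval of -1.19 to -0.14. Its arrays overlapped between the groups, with induced RhoH replicate 3 inside the GFP range. Without that array JUN was called at -0.97 (limma adjusted p = 0.0106), and with array weights it was called as well (0.0202).

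The other 6 had differences between -0.19 and 0.13 on the log2 scale. The 95% intervals of JUNB, -0.62 to 0.40, FOSB, -0.48 to 0.42, IER2, -0.34 to 0.60, and DUSP1, -0.32 to 0.22, all included 0. Those of FOS, -0.97 to 0.80, and EGR1, -1.12 to 0.73, were wider and included 0 too. The arrays overlapped for all 7 members, beside 22.5% of all genes whose arrays did not.

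Uninduced RhoH cells had lower levels than GFP cells with 4-OHT for 4 of the 7 members, beside 15.3% of all genes called, 6.01% higher and 9.27% lower. JUN averaged 5.14 ± 0.07 in uninduced RhoH and 9.41 ± 0.28 in GFP cells (SD, n = 3 each) and was lower by a measured 19.3-fold, with the same limit on its low signal (log2 fold change -4.27, SE 0.24, limma adjusted p = 2.78e-06). JUNB (-1.27, limma adjusted p = 0.00386), FOS (-1.48, 0.0304) and EGR1 (-1.43, 0.043) were lower too. FOSB was at -0.24, IER2 at -0.25 and DUSP1 at -0.12, none of them called. Every uninduced RhoH array was below every GFP array for JUN, JUNB, FOS and EGR1, beside 18.1% of all genes. This comparison shares its uninduced arrays with the first and its GFP arrays with the second, so the low uninduced level of these 4 genes enters both comparisons that use it.

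JUN and JUNB kept these calls in each of the 19 alternatives. The call of FOS was lost without uninduced RhoH replicate 1 (adjusted p = 0.115) or 3 (0.0884) and without GFP replicate 1 (0.123), 2 (0.0607) or 3 (0.0632), without the replicate 1 arrays of both RhoH groups (0.115) and with all probe sets tested (0.0711). EGR1 lost its call when any 1 of the 6 RhoH arrays was left out (adjusted p = 0.0536 to 0.128), with only the 6 arrays compared (0.0764), after quantile normalization again (0.0571), with all probe sets tested (0.0958) and without the replicate 1 arrays of both RhoH groups (0.141). Without GFP replicate 1 its difference was -0.84 in place of -1.43 (adjusted p = 0.0348).

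**Figure D3:**
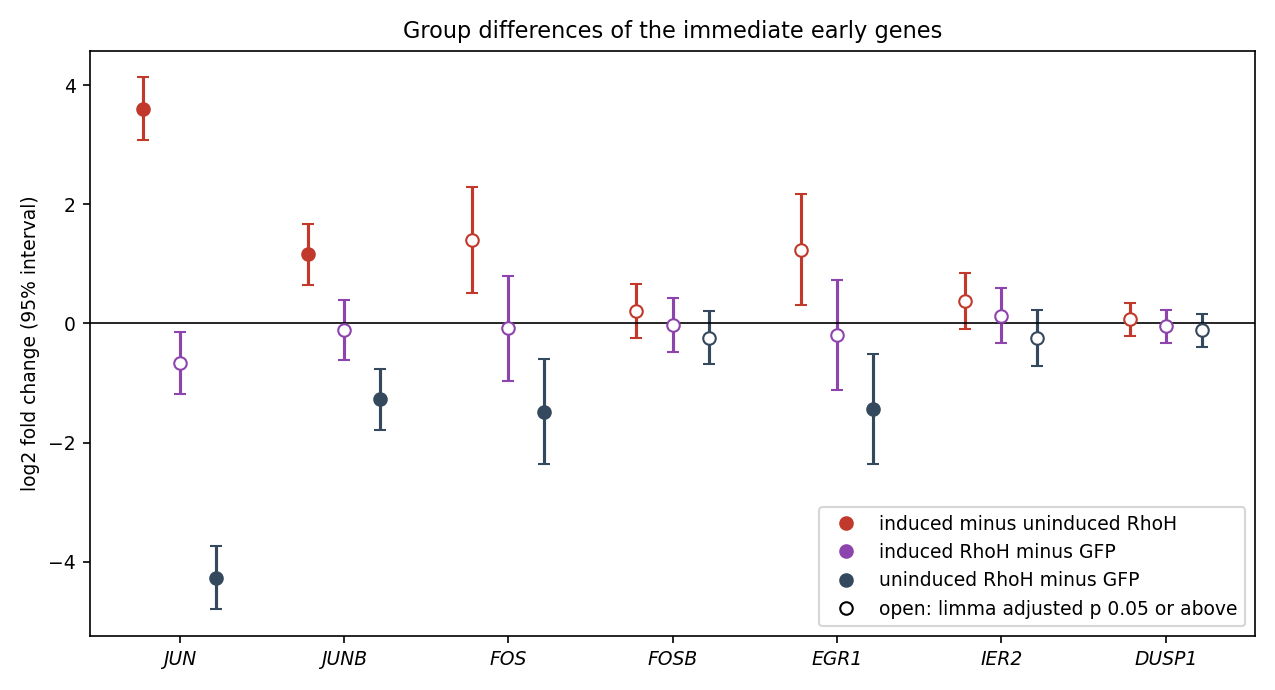
Log2 fold change (vertical axis, with the 95% interval of the limma fit) of the 7 genes in the 3 comparisons; filled points were called at an adjusted p under 0.05. JUN stands at 3.60, -0.67 and -4.27, and FOSB, IER2 and DUSP1 have intervals that include 0 in all 3.

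Within the groups the members were high on the same arrays. In GFP cells replicate 1 was the highest of the 3 arrays for all 7 members, whereas it was the highest for 35.6% of all genes. Its EGR1 value was 1.18 above the GFP mean, that of FOS 0.56 and that of FOSB 0.53 on the log2 scale. In induced RhoH cells replicate 3 was the highest for 6 of the 7, all but DUSP1, and for 46.8% of all genes. There FOS was 0.91, JUN 0.62, JUNB 0.58 and IER2 0.52 above the group mean. In uninduced RhoH cells replicate 2 was the highest for all 7, and for 35.4% of all genes, with FOS 0.54 and EGR1 0.31 above the mean.

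The spread of the members over GFP arrays was large for that group: the SD of EGR1, 1.02, exceeded that of 99.99% of the named genes, and those of the other 6 that of 94.2% to 99.8%. In induced RhoH cells FOS (SD 0.79), JUN and JUNB each exceeded at least 97.6% of genes, while DUSP1 exceeded 44.7%. In uninduced RhoH cells FOS again varied most, with an SD of 0.51. The 7 members are read from the same RNA samples, so their joint deviation is 1 observation per array. GFP replicate 1 and induced RhoH replicate 3, where most members were highest in their groups, were left out together after the data were seen. In that fit JUN rose by 3.29, JUNB by 0.87 and EGR1 by 1.08 in induced against uninduced RhoH cells (limma adjusted p = 2.44e-05, 0.0216 and 0.0332). FOS was at 0.94 (limma adjusted p = 0.130). The members' own values mark these arrays, so this fit is descriptive and its p-values lend the members no support. Uninduced RhoH replicate 2, the highest of its group for all 7, was kept.

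**Figure D4:**
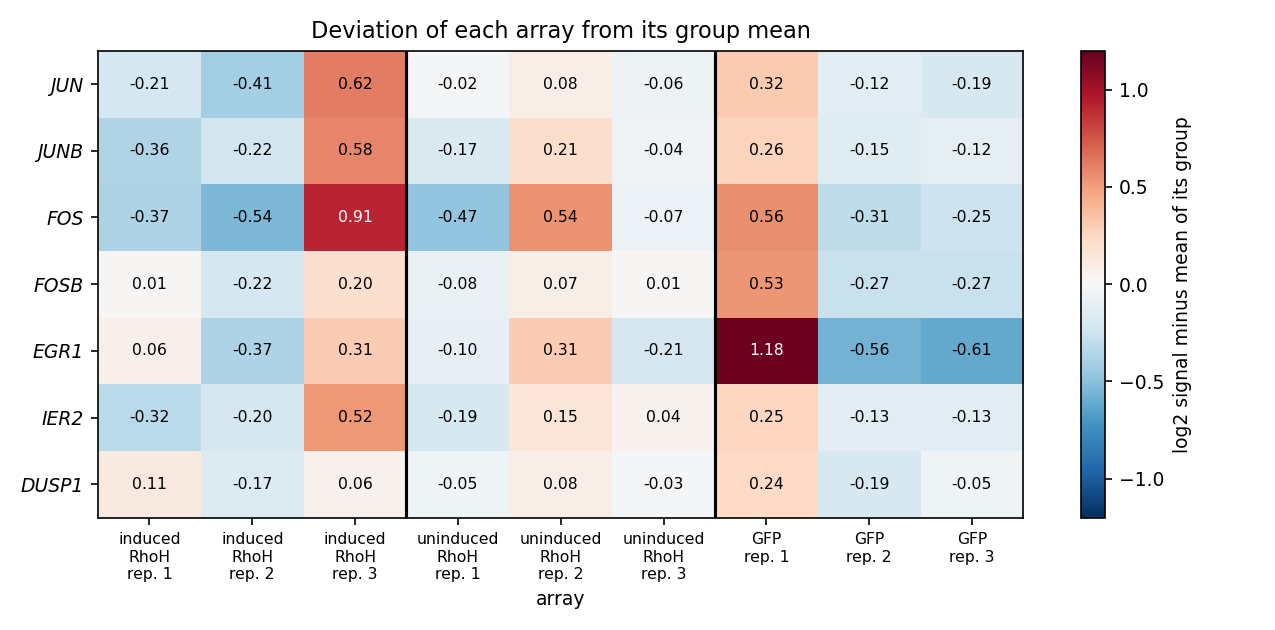
Log2 signal of each of the 7 genes (rows) on each of the 9 arrays (columns) minus the mean of its group; red is above and blue below the group mean. The columns of induced RhoH replicate 3, uninduced RhoH replicate 2 and GFP replicate 1 hold positive values for all 7 genes, up to 1.18 for EGR1.

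The genes whose log2 signal followed JUN most closely over the 9 arrays, among 1750 genes spanning at least 1 on the log2 scale, were BCOR, a transcriptional co-repressor (Pearson r = 0.997), LYN, a Src-family kinase of myeloid cells (0.993), ODC1, the rate-limiting enzyme of polyamine synthesis (0.992), the MAP kinase phosphatase DUSP10 (0.992) and the transcription factor KLF10 (0.992). LYN, for example, averaged 9.68 in induced RhoH, 8.66 in uninduced RhoH and 9.97 in GFP cells. FOS was followed most closely by its fellow member JUNB (0.973), the adhesion molecule NECTIN2 (0.967), the glycolytic enzyme TPI1 (0.96), the telomere protein TINF2 (0.949) and the G protein regulator RGS1 (0.944). For EGR1 they were the antisense RNA ATP2B1-AS1 (0.964), RGS1 (0.956), the chemokine CXCL8 (0.951), the pseudogene TOP1P1 (0.927) and the cytokine TNF (0.906). These correlations describe 9 arrays that share 3 groups and, for EGR1 and FOS, the same high arrays. By rank, CXCL8 and TOP1P1 followed EGR1 less closely (Spearman rho 0.733 each) than ATP2B1-AS1 (0.933), RGS1 (0.929) and TNF (0.946) did. The mean signals of RGS1 and TOP1P1 were below the array medians in every group.

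Of the rest of the pathway, 6 lists with 114 genes were set, also with earlier results of these data known, and 69 of these genes were measured. The medians of all named genes were -0.0043, 0.03 and 0.05 on the log2 scale for induced against uninduced RhoH, induced RhoH against GFP, and uninduced RhoH against GFP. Over all named genes limma called 3.02% higher and 0.751% lower in the first of these comparisons, 1.74% and 2.75% in the second, and 6.01% and 9.27% in the third. These shares belong beside the calls of each of the 6 lists. Among 9 other measured genes of the JUN, FOS, ATF and MAF families, JUND and MAFG rose with 4-OHT in RhoH cells and none fell (median 0.34). JUND, the remaining JUN protein, averaged 9.68 ± 0.33 in induced and 8.21 ± 0.24 in uninduced RhoH cells (SD, n = 3 each), 2.77-fold higher (limma adjusted p = 0.00144), and kept its call in all 19 alternatives. MAFG, a small MAF protein, rose by 0.77 (0.0226), a call lost in 8 of 19 alternatives: on removal of uninduced RhoH replicate 1 or 3, of induced RhoH replicate 2 or 3, or of GFP replicate 2 (up to 0.0671), without GFP replicate 1 and induced RhoH replicate 3 together (0.113), with only the 6 arrays compared (0.115) and with all probe sets tested (0.064). Against GFP cells limma called none of the 9 for induced RhoH (median -0.14, 2 at an unadjusted p under 0.05). For uninduced RhoH 4 of the 9 were lower, beside 9.27% of all genes (median -0.17): JUND (-1.80), MAFG (-0.99), and the FOS-related FOSL1 (-0.86) and FOSL2 (-0.64). The call of FOSL2 was lost when uninduced RhoH replicate 1 or 3, induced RhoH replicate 2 or any 1 GFP array was removed (highest adjusted p 0.158), and in 8 of 19 alternatives in all.

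Of 6 measured relatives of the other members and co-repressors of EGR proteins, limma called none in induced against uninduced RhoH (median 0.19, 2 at an unadjusted p under 0.05) or in induced RhoH against GFP (median 0.05, 0 at that unadjusted p). IER3, a stress-response gene, was lower in uninduced RhoH than in GFP cells (-0.63, limma adjusted p = 0.0127). It was the only 1 of these 6 called there (list median -0.24), beside 9.27% of all genes lower and 6.01% higher. Of 16 other immediate early genes, KLF10 (1.10, adjusted p = 0.00221) and the kinase gene SGK1 (1.16, 0.0109) rose with 4-OHT in RhoH cells, and MYC, which drives growth and division of progenitors, fell (-0.85, 0.00287; list median 0.17). MYC ran opposite to JUN over the groups, at 10.83 ± 0.21 in induced RhoH, 11.68 ± 0.04 in uninduced RhoH and 10.07 ± 0.10 in GFP cells (SD, n = 3 each), and it was the only gene of this list called in induced RhoH against GFP (0.76, 0.00469; list median -0.02). In uninduced RhoH against GFP cells MYC was higher (1.61), beside 6.01% of all genes, and 5 of the 16 genes were lower, beside 9.27% (list median -0.24): SGK1 (-1.93), KLF6 (-1.32), KLF10 (-1.30), CSRNP1 (-0.77) and MCL1, named after its value was seen (-0.40). The call of CSRNP1 was lost when uninduced RhoH replicate 1 or GFP replicate 1 or 2 was removed (highest adjusted p 0.061), and the count of lower genes in this list ran from 3 to 7 as single arrays were left out. SGK1 lost its call with 4-OHT with only the 6 arrays compared (0.0513) and without the replicate 1 arrays of both RhoH groups (0.0691). At 4.79 in uninduced RhoH cells, the mean signal of SGK1 was below the array medians, so its differences from that group may be lower bounds.

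Of 10 measured MAP kinase phosphatases and feedback inhibitors, DUSP10, a phosphatase of the JNK and p38 kinases, and DUSP6, a phosphatase of ERK, rose with 4-OHT in RhoH cells (list median 0.09). DUSP10 averaged 9.81 ± 0.22 in induced and 8.21 ± 0.14 in uninduced RhoH cells (SD, n = 3 each), 3.04-fold higher (limma adjusted p = 7.74e-05), and kept its call in all 19 alternatives. DUSP6 rose by 0.87 (0.0197), a call lost when uninduced RhoH replicate 3 or else induced RhoH replicate 1 was left out (up to 0.0514) and in 4 other alternatives (up to 0.107). In uninduced RhoH against GFP cells DUSP10 (-1.95), DUSP4 (-0.74) and DUSP6 (-0.72) were lower and the receptor signalling inhibitor SPRY2 was higher (0.79). The list median was -0.06, and of all genes 9.27% were lower and 6.01% higher in this comparison. DUSP6 lost its call there without GFP replicate 2 or 3 (adjusted p up to 0.07) and without the replicate 1 arrays of both RhoH groups (0.0562). SPRY2 alone was called in induced RhoH against GFP (0.86, 0.0134; list median -0.0085), a call lost without GFP replicate 2 or 3 (up to 0.0718).

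None of 14 measured upstream kinases and transcription factors was called by limma between induced and uninduced RhoH cells (median 0.11; 2 at an unadjusted p under 0.05, as for 14.5% of all genes). In uninduced RhoH against GFP cells 1 of the 14 was higher and 3 were lower, beside 6.01% and 9.27% of all genes (list median -0.21). The higher gene was SRF, the factor that binds CArG boxes such as those printed above for EGR1. SRF averaged 9.63 ± 0.10 in uninduced RhoH and 8.94 ± 0.02 in GFP cells (SD, n = 3 each), a difference of 0.69 (limma adjusted p = 0.00541). MAP3K5 (-0.95), MAP2K2 (-0.60) and the SRF co-activator gene MRTFA (-0.29) were lower. The call of MRTFA was lost when uninduced RhoH replicate 2 or 3 or any 1 GFP array was removed (highest adjusted p 0.113), and in 8 of 19 alternatives in all, among them quantile normalization again (0.0992). MAP3K5, a stress-activated kinase, was also lower in induced RhoH than in GFP cells (-0.57, 0.0193; list median -0.11), a call lost in 5 of 19 alternatives, among them those without induced RhoH replicate 1 or any 1 GFP array (up to 0.0992).

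Of 14 measured textbook targets of AP-1 or EGR1, the chemokine gene CCL2 (4.02, limma adjusted p = 0.000984) and SPP1, which encodes osteopontin (1.04, 0.0255), rose with 4-OHT in RhoH cells and none fell (median 0.16). CCL2 averaged 8.40 ± 1.21 in induced RhoH, 4.39 ± 0.06 in uninduced RhoH and 10.26 ± 0.13 in GFP cells (SD, n = 3 each), so that its uninduced signal too was below the array medians and its differences from it may be lower bounds. CXCL8 was at 1.29 (limma adjusted p = 0.0628). In uninduced RhoH against GFP cells 6 of the 14 were lower and 2 higher, beside 9.27% and 6.01% of all genes (median -0.30), with CCL2 at -5.87, CXCL8 at -1.95, ICAM1 at -0.95, SPP1 at -0.85, MT2A at 1.90 and VEGFA at 0.78. Induced RhoH cells had lower ICAM1 (-0.69) and CD44 (-0.65) and higher MT2A (1.48), TIMP1 (0.90) and VEGFA (0.60) than GFP cells (median -0.05), and CCL2 was at -1.85 (0.0504). The 3 higher calls were lost when any 1 GFP array was left out, those of MT2A and TIMP1 also without induced RhoH replicate 1 or 3 or uninduced RhoH replicate 2, and that of TIMP1 also without uninduced RhoH replicate 3 (adjusted p up to 0.174). Over all 19 alternatives TIMP1 lost its call in 13 (up to 0.288), MT2A in 11 (up to 0.174) and VEGFA in 4 (up to 0.0669), and those of TIMP1 and MT2A include quantile normalization again, array weights and all probe sets. SPP1 lost its call with 4-OHT without any 1 uninduced RhoH array or GFP replicate 2 or 3 (up to 0.104), and its call in uninduced RhoH against GFP without uninduced RhoH replicate 1 or 3 or any 1 GFP array (up to 0.0924), in each case 8 of 19 alternatives in all (up to 0.115 and 0.0924).

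**Figure D5:**
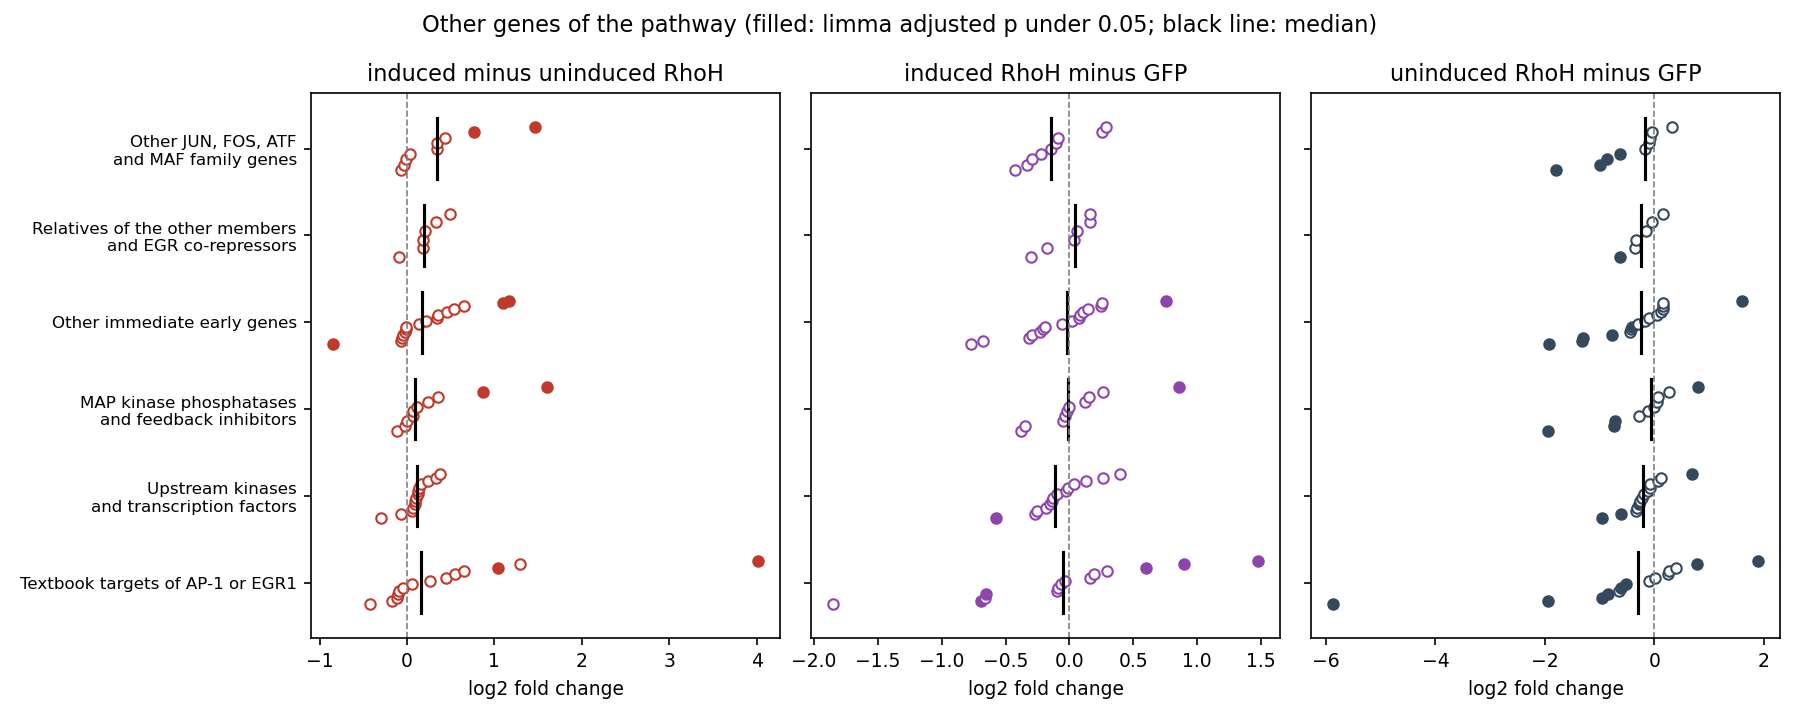
Log2 fold change (horizontal axis) of each measured gene in the 6 lists of the pathway (rows) in the 3 comparisons (panels, each with its own scale); filled points were called by limma at an adjusted p under 0.05 and the black line is the list's median. The point at 4.02 with 4-OHT in RhoH cells and at -5.87 in uninduced RhoH against GFP is CCL2.

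The mean over the monocyte markers was lowest in uninduced RhoH cells, as JUN was, but the markers differed among themselves. Over 5 measured monocyte and macrophage markers (CD14, CD68, CSF1R, CD86 and LYZ), the mean log2 signal was 8.36 to 8.71 on the induced RhoH arrays, 7.78 to 7.92 on the uninduced RhoH arrays and 8.94 to 9.04 on the GFP arrays. Of them CD86 (7.67 in induced and 5.60 in uninduced RhoH) and CD68 (10.13 and 9.02) were called higher with 4-OHT in RhoH cells, beside 3.02% of all genes. CD14 averaged 5.51 in induced and 5.39 in uninduced RhoH cells, CSF1R 6.97 and 6.63, and LYZ 12.54 and 12.65, none of them called. Of the 5, 1 was lower in induced RhoH than in GFP cells, beside 2.75% of all genes, and 3 were lower in uninduced RhoH than in GFP cells, beside 9.27%. The mean over the 4 promyelocyte markers was 11.82 to 12.18 in induced RhoH, 12.28 to 12.32 in uninduced RhoH and 10.58 to 10.62 in GFP cells, and all 4 were higher in both RhoH groups than in GFP cells, beside 1.74% and 6.01% of all genes. With 4-OHT in RhoH cells 1 of the 4 was lower, beside 0.751%. Of 2 measured eosinophil markers both were higher in either RhoH group than in GFP cells, beside 1.74% and 6.01% of all genes. Of 3 mast cell and basophil markers (KIT, CPA3 and HDC) 2 were higher with 4-OHT in RhoH cells, beside 3.02%. Against GFP cells 1 of these 3 was higher and 1 lower in either RhoH group. All-gene shares there were 1.74% higher and 2.75% lower for induced, 6.01% and 9.27% for uninduced RhoH. KIT and HDC averaged below the array medians in every group. The mean over the T cell markers CD8A and CD2 was 6.08 to 6.41 in induced RhoH, 6.08 to 6.11 in uninduced RhoH and 6.02 to 6.09 in GFP cells. The part of these shifts in the levels of the immediate early genes was not tested. In bulk RNA, fewer cells of a type and less RNA per cell cannot be told apart.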

How the data were processed

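RNA of 9 HL-60 clone 15 samples was measured on Affymetrix arrays. The deposited values are log2 signals of 43550 probe sets, made by the authors with Affymetrix Power Tools and RMA, with limma also named, per the submitters' processing notes; their versions are not given in the sources used here. Of the probe sets, 15659 had 1 gene symbol in the platform annotation, 0 had several and 27891 had none. All 15659 were matched to RefSeq (GRCh38.p14), and the probe set with the highest mean stood for each of 521 genes with several, which left 14778 genes. A model of the 3 group means was fitted with limma 3.58.1 in R 4.3.3 (lmFit, eBayes), and p-values were adjusted by Benjamini-Hochberg over all 14778 genes, with calls at an adjusted p under 0.05. Intervals are 95% intervals of that fit, not adjusted for the number of genes. No filter was set on dim genes, and 3 arrays a group limit the precision. As a check of the code, the fit was run on simulated independent values with added differences and equal spread in the groups. That run checked the estimated differences and does not test the calls on these arrays.

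The members and gene lists were chosen with earlier results of these data known. Up to 4 genes a list and direction are named, those with the largest change among the called ones, and the 5 genes most like JUN, FOS and EGR1. Outside this rule, MCL1 is named in uninduced RhoH against GFP. So are CXCL8 with 4-OHT in RhoH cells and CCL2 in induced RhoH against GFP, which were not called there. Alternatives were another scaling (quantile, median), array weights, an intensity trend with a robust prior, the dimmest genes left out, all probe sets, the other FOSB probe set, only the 6 arrays compared, the replicate block and leaving out arrays. Leaving out GFP replicate 1 and induced RhoH replicate 3 together, and the motifs TGACATCA and TGACGTTT, were chosen after seeing the data.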

Additional observations from a re-analysis of the deposited data

How the results depend on the processing

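Of the 7 measured immediate early genes, 2 were called in induced against uninduced RhoH cells, 0 in induced RhoH against GFP and 4 in uninduced RhoH against GFP. Beside them stand 3.78%, 4.49% and 15.3% of all genes. The shares of all genes under the alternatives in this paragraph are not given here. A change in the member counts therefore cannot be told apart from a change in calls over all genes. With all probe sets tested these counts were 1, 0 and 2. The count in induced RhoH against GFP was 1 with array weights, and 1 without GFP replicate 1 and induced RhoH replicate 3 together, the alternative chosen after seeing the data. The count in uninduced RhoH against GFP was 2 without the replicate 1 arrays of both RhoH groups. Leaving out single arrays gave 1 to 3, 0 to 1 and 2 to 3 calls in the 3 comparisons. Of the counts over the pathway lists under the alternatives, 619 of 684 lay within 1.5 times the main count and 65 did not. Many main counts were 0, and a count of 0 that stayed at 0 was taken as within. The share therefore says little about the stability of the counts above 0.

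Signs turned only for differences that were called in neither setting. In induced against uninduced RhoH cells DUSP1 was at -0.029 with array weights and -0.013 without the replicate 1 arrays of both RhoH groups. In induced RhoH against GFP, leaving out single arrays gave -0.40 to 0.071 for JUNB, -0.54 to 0.19 for FOS, -0.16 to 0.24 for FOSB, -0.50 to 0.39 for EGR1, -0.13 to 0.29 for IER2 and -0.14 to 0.068 for DUSP1. There, leaving out the replicate 1 arrays of both RhoH groups gave 0.071 for JUNB and 0.10 for FOS, leaving out GFP replicate 1 and induced RhoH replicate 3 together gave 0.13 for FOSB, 0.24 for EGR1, -0.0052 for IER2 and 0.040 for DUSP1, and the other FOSB probe set gave 0.16. In uninduced RhoH against GFP, leaving out single arrays gave -0.37 to 0.027 for FOSB and -0.21 to 0.0004 for DUSP1, leaving out those 2 arrays together gave 0.027 and 0.0004, and the other FOSB probe set gave 0.093. The cause of these changes was not tested.

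With the replicate number as a block, 2, 0 and 4 members were called, with no member's call changed, and 684, 820 and 2558 genes were called, against 558, 664 and 2258 without it. The deviations from the group means of same-numbered arrays correlated at 0.543, 0.132 and 0.101 for number 1 and 0.369, 0.153 and 0.154 for number 2 (induced with uninduced RhoH, uninduced RhoH with GFP, induced RhoH with GFP). For number 3 they correlated at 0.0654, -0.0258 and 0.0081, and uninduced RhoH replicate 3 correlated best with induced RhoH replicate 2 (0.395). All pairs of numbers 1 and 2 were above 0.1 and those of number 3 were not. The main fit did not take the numbers as pairs, since the labels do not say that a number marks a shared culture or day.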
